A study of Mus musculus with 54 samples.

Results

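Captured methylated DNA was described in 8 segments of the mouse genome that lie outside chromosome 5 and together span 502.75 kb. The segments were chosen from the difference in captured DNA between C5 and B6 intestine in this series, and they hold 2011 of the 10535096 windows of 250 bp that were counted. In mm10 coordinates they are chr17:6420501-6592250, chr19:28629501-28645500, chr10:89883751-89944750, chr9:99750001-99782250, chr7:131343251-131363000, chr1:88230251-88309000, chr4:130091251-130208500 and chr12:20227751-20233750. Each is called below by its chromosome. Because C5 and B6 libraries set the choice, C5 against B6 is given as a description with no test, and B6 libraries entered the choice of every segment that is later compared with B6. Comparisons among PWD, B6xPWD, C5F1 and C1_5F1 set no B6 or C5 level against another, but all 15 groups of strain and tissue share an estimate of the spread in the model, so B6 and C5 libraries still bear on their standard errors and p-values. These comparisons are therefore also given from a model without any B6 or C5 library, added after the data were seen.

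B6 (C57BL/6) and PWD (PWD/Ph) are the parental inbred strains, and B6xPWD is their F1 hybrid. C5 is labelled CSS C57BL/6 chr5 PWD, a chromosome substitution strain in which a B6 mouse carries chromosome 5 of PWD. C5F1 is labelled as the F1 of C57BL/6 and that strain, and C1_5F1 as the F1 of C57BL/6 and a strain with PWD chromosomes 1 and 5. Mice were 15 to 19 weeks old. The 3 tissues were intestinal adenoma and normal mucosa, both from mice that carry the tumour-prone Min allele of Apc (called Apc Min here), and wild type mucosa. B6 had 5 adenoma, 3 Apc Min normal and 4 wild type libraries. B6xPWD, C5 and C5F1 had 3 libraries of each tissue, C1_5F1 had 2 adenoma and 2 Apc Min normal libraries, and PWD had 3 wild type libraries. The labels name no animal behind a library, so p-values measure only the spread between these samples.

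A chromosome substitution strain is made by repeated backcrossing, with selection for the donor chromosome and for the host genome elsewhere. Stretches of donor DNA can persist outside the selected chromosome, and a breeding line kept apart from its host strain can also gain or lose sequence of its own. MeDIP uses an antibody against 5-methylcytosine to pull down methylated fragments, so the number of reads in a window depends both on how methylated the DNA is and on how many copies of it the genome holds. A sequence that one strain lacks, or that it carries in more copies, therefore moves the read count in the same way as a change in methylation, and in captured DNA alone the 2 cannot be told apart. Values are CPM, the count in a segment or window relative to the scaled size of its library, and give a level of captured DNA rather than the share of cytosines that are methylated.

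Promoter sequence bears on 2 of the segments, because the windows richest in CpG in the chr7 and chr1 segments lie at or beside gene starts. The sequences are RefSeq promoters of build GRCm38.p6, the assembly of mm10, each from 250 bases before to 50 after a gene's start and written on the gene's strand, with every CpG in capitals. The first belongs to 2310057M21Rik (minus strand, chr7:131362677-131362976), the second to Hjurp (minus strand, chr1:88277530-88277829), and the third to Trpm8 (plus strand, chr1:88306485-88306784), shown as a CpG-poor promoter of the same segment as Hjurp.
2310057M21Rik: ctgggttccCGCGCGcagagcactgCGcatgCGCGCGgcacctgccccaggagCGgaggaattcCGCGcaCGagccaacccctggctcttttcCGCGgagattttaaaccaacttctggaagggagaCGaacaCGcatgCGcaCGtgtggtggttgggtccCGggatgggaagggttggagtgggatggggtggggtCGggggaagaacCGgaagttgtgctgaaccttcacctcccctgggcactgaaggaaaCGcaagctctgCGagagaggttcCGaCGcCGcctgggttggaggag
Hjurp: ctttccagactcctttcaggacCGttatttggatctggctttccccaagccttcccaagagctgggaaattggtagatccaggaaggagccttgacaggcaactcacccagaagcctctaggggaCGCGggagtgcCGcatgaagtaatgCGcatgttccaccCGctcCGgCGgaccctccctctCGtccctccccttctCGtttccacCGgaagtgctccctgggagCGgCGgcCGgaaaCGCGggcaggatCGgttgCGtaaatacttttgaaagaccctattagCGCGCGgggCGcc
Trpm8: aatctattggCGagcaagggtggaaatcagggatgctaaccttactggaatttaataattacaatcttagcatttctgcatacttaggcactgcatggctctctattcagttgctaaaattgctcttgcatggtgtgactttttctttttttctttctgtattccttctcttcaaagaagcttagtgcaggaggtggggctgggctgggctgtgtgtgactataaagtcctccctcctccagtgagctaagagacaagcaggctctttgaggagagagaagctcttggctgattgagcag
Searched as the letters CG, which read the same on both strands, the 2310057M21Rik promoter holds 25 sites, the Hjurp promoter 22 and the Trpm8 promoter 1. Of the 32851 promoters in the same table, 18.4% hold at least 25 sites, 23.1% at least 22 and 94.6% at least 1.

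Total counts per library ran from 8358806 to 27842607, and of the 1172069 autosomal windows that passed a filter on low counts, 556 lay in the segments. 222 of the 687 windows of the chr17 segment and 23 of the 129 windows of the chr9 segment had no read in any library. Chromosome 5 was used to check the strain labels, over 10960 windows that differ between PWD and B6 wild type mucosa, with B6 set to 0 and PWD to 100. C5 libraries stood at 85.0 ± 4.86 (SD, n = 9), C5F1 at 47.9 ± 2.58 (n = 9), and B6xPWD at 49.5 ± 1.39 (n = 9). C1_5F1 stood at 34.7 ± 0.75 (n = 4), with all 4 libraries between 34.0 and 35.7, below every library of the other 2 F1 groups, although its label gives it, like them, 1 PWD chromosome 5. In this respect the data depart from the C1_5F1 label. Over the windows within 500 kb of each segment, outside the segment itself, the C5 means lay between -2.32 and 18.3 on that scale, those of C5F1 between -0.08 and 15.7, and those of B6xPWD between 44.7 and 50.9. C1_5F1 means lay between -8.72 and 5.30, except for 44.9 around the chr1 segment. The 8 B6 libraries of the Apc Min tissues, which did not set the scale, had means between -10.99 and 5.39 around the segments. On chromosome 5 they stood at 5.02 ± 2.66.

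Within C5, the Apc Min normal library 16_2 and the adenoma library 16_3 stood apart from the other 7 libraries at the chr17, chr19 and chr9 segments. On chromosome 5 they stood at 77.9 and 78.8 on the scale from B6 to PWD, at the low end of the C5 range of 77.9 to 91.5. C5 levels are therefore given over all 9 libraries and over the 7 others.

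**Figure D1:**
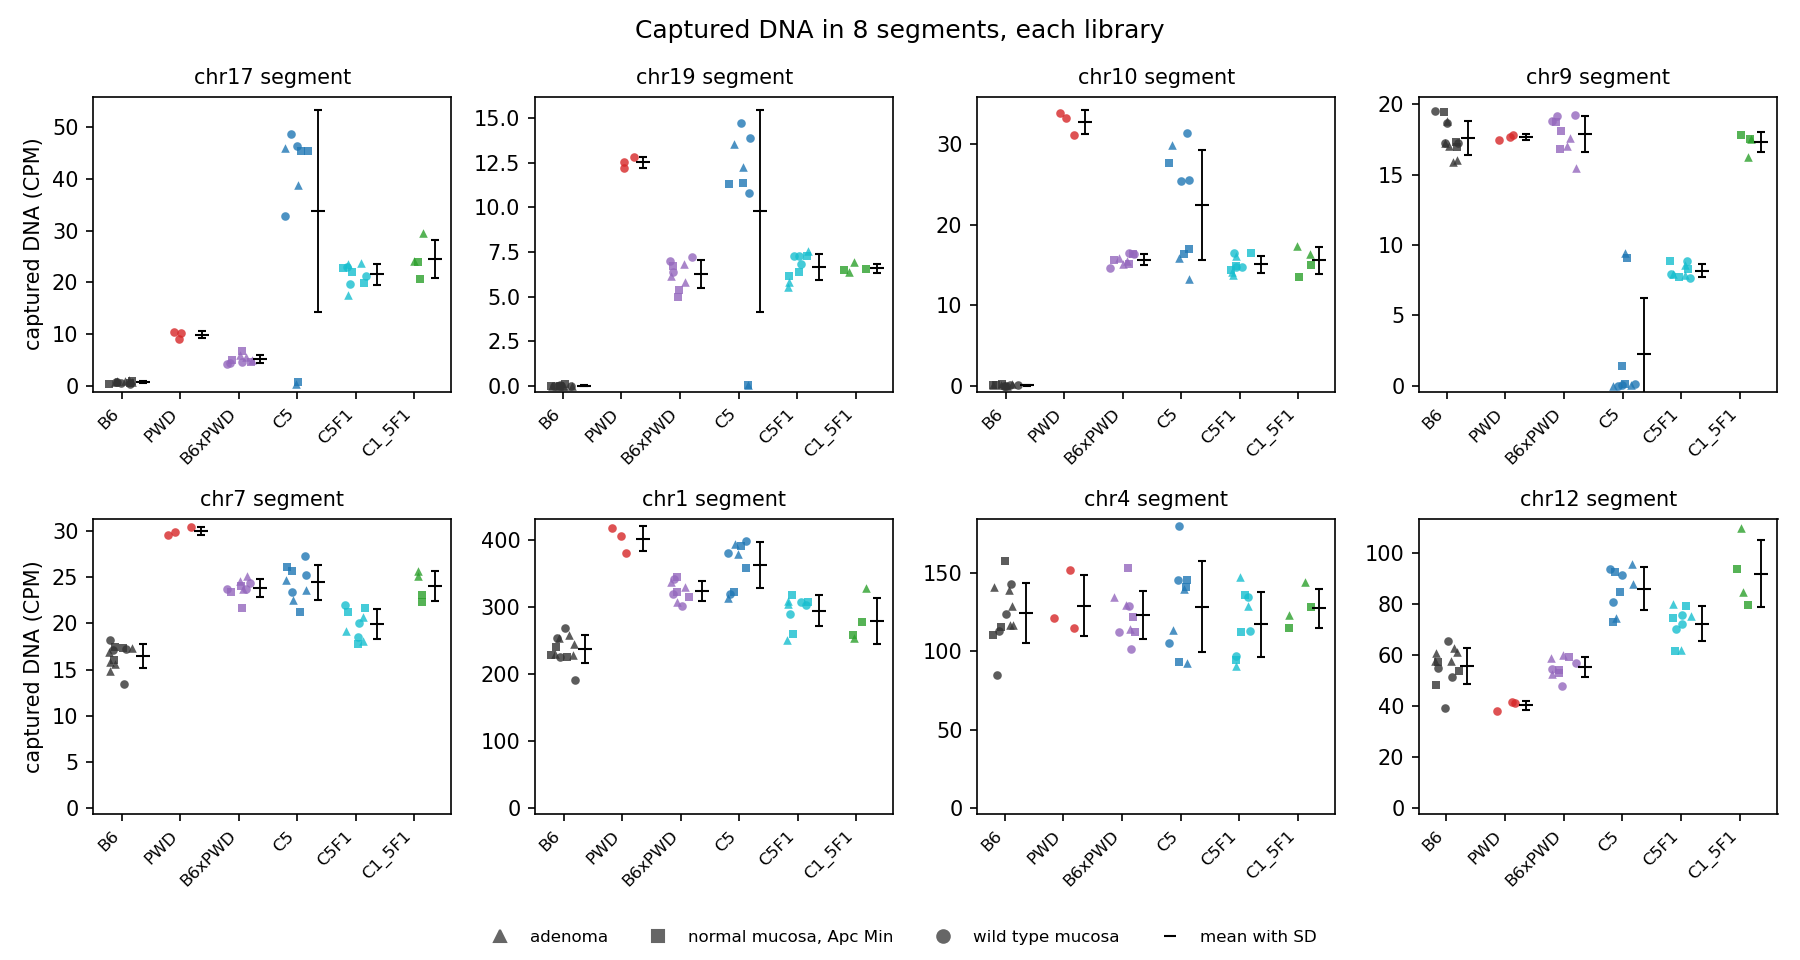
Captured DNA (CPM, linear axis from 0) in each of the 8 segments for every library of the 6 strains, with tissue as the symbol and the mean with its SD beside each group. B6 sits near 0 at chr17, chr19 and chr10, and at the chr9 segment C5F1 sits at 8.19 CPM between C5 and the 4 other strains.

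The chr19 and chr10 segments were close to empty in B6, full in PWD and near the middle in every hybrid. The chr19 segment lies wholly inside Glis3, which encodes a Krüppel-like zinc finger transcription factor. In B6 it drew 3 reads in 12 libraries together, and the highest library had 0.106 CPM. The 3 PWD libraries had 12.8, 12.5 and 12.2 CPM. B6xPWD ran from 4.98 to 7.21 CPM with a median of 6.39, C5F1 from 5.51 to 7.58 with a median of 6.81, and the 4 C1_5F1 libraries had 6.47, 6.57, 6.92 and 6.35. No PWD or hybrid library overlapped B6, and none of the hybrids reached PWD. As a share of the PWD mean, B6xPWD stood at 50.1% ± 6.10 (n = 9), C5F1 at 53.3% ± 5.90 (n = 9) and C1_5F1 at 52.5% ± 1.94 (n = 4).

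Against B6, the chr19 segment rose in all 4 strains. The log2 difference was 9.44 ± 1.18 (SE) in PWD (adjusted p = 9.76e-08), 8.63 ± 0.84 in B6xPWD (adjusted p = 9.93e-10), 8.72 ± 0.83 in C5F1 (adjusted p = 3.16e-09) and 8.81 ± 1.19 in C1_5F1 (adjusted p = 2.44e-05). With so few B6 reads these fitted values depend on the prior count. The ratio of pooled reads per library size was 1024 in PWD (95% interval 349 to 4974, counting error only) and 544 in C5F1 (186 to 2643). PWD exceeded B6xPWD by 0.87 ± 0.46, which did not pass (adjusted p = 0.509), but passed when the C5 libraries 16_2 and 16_3 were left out of the model (0.87 ± 0.12, adjusted p = 1.50e-06) and when all B6 and C5 libraries were (0.86 ± 0.10, adjusted p = 3.57e-07). C5F1 and B6xPWD differed by 0.09 ± 0.30 (adjusted p = 0.902).

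In C5, 7 libraries had 10.8 to 14.7 CPM at chr19, a mean of 12.6 ± 1.495 that is close to PWD, whereas 16_2 and 16_3 had 0.05 CPM each, the level of B6. With them the C5 mean was 9.78 ± 5.67 (n = 9). C5F1 stood at 53.2% ± 5.89 (n = 9) of the mean of those 7 libraries. The ends of the segment were abrupt in B6: 538 reads fell in the 2 kb to its left and 1 read in the first 2 kb inside, while PWD went from 2.32 CPM outside to 2.74 inside.

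The chr10 segment lies inside Anks1b, which encodes an ankyrin repeat and SAM domain protein of neurons. B6 drew 15 reads there in 12 libraries, at most 0.165 CPM. PWD had 31.2, 33.9 and 33.3 CPM. B6xPWD ran from 14.6 to 16.5 CPM (median 15.6), C5F1 from 13.8 to 16.5 (median 14.8), and C1_5F1 had 15.0, 13.5, 16.4 and 17.4. Hybrid libraries again lay clear of both parents, at 47.8% ± 1.98 of PWD in B6xPWD, 46.0% ± 3.15 in C5F1 and 47.5% ± 5.21 in C1_5F1.

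At chr10 the log2 difference from B6 was 10.10 ± 0.36 in PWD (adjusted p = 9.29e-24), 8.02 ± 0.21 in B6xPWD (adjusted p = 3.96e-29), 7.97 ± 0.21 in C5F1 (adjusted p = 6.53e-29) and 7.50 ± 0.27 in C1_5F1 (adjusted p = 1.22e-23). The pooled ratio to B6 was 535 in PWD (324 to 957) and 247 in C5F1 (149 to 442). PWD exceeded B6xPWD by 1.05 ± 0.17 (adjusted p = 2.68e-05), the only segment of 8 that passed in this comparison with all libraries in the model, where 2.28% of all features tested did. Without any B6 or C5 library the difference was 1.04 ± 0.09 (adjusted p = 1.33e-09). C5F1 and B6xPWD differed by -0.05 ± 0.10 (adjusted p = 0.811).

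C5 was split at chr10 in another way. The 3 wild type libraries had 25.5, 25.5 and 31.3 CPM, and the Apc Min libraries 12_4 and 12_5 had 27.7 and 29.9. Apc Min normal libraries 12_2 and 16_2 had 17.05 and 16.4, and adenoma library 16_3 had 15.9, in the range of the hybrids. Adenoma library 12_3 had 13.2, just below the lowest hybrid library, which had 13.5 in C1_5F1. The C5 mean was 22.5 ± 6.84 CPM over 9 libraries and 24.3 ± 6.71 over the 7 other than 16_2 and 16_3. The emptiness of B6 ran past the ends of the segment, since its 12 libraries had 1 read in the 2 kb on the left and 0 on the right, where C5F1 had 44 and 36.

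**Figure D2:**
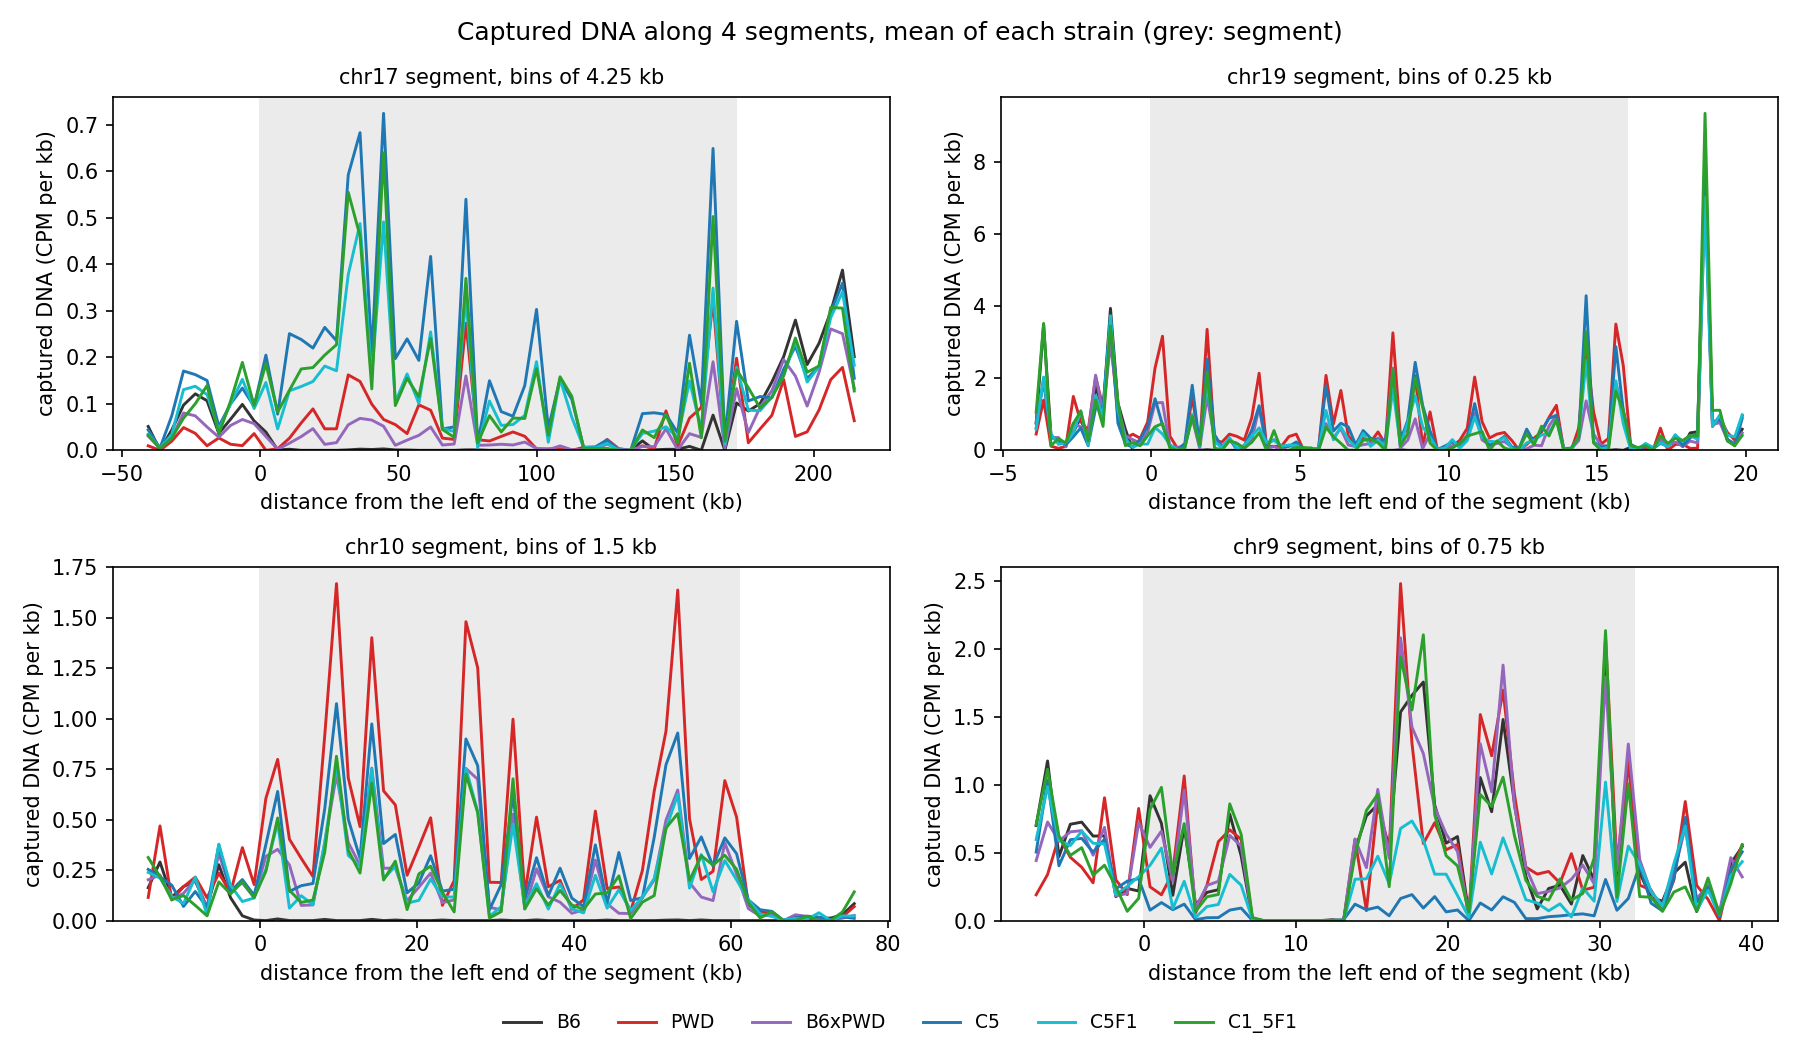
Mean captured DNA (CPM per kb) of each strain along the chr17, chr19, chr10 and chr9 segments and the sequence beside them, against distance from the left end of the segment in kb, with the segment in grey. B6 runs at the floor across the grey part of chr17, chr19 and chr10, and at chr9 the C5 line runs at the floor and the C5F1 line between it and the rest.

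The chr17 segment held more captured DNA in the substitution strains than in either parent. It carries Dynlt1b, which encodes a dynein light chain, the predicted coding genes Gm2808 and Gm29721, the pseudogenes Gm29719, Tmem181b-ps, Ppp1r2-ps5 and Gm17880, and the noncoding LOC115488814. Dynlt1a and Dynlt1c, near relatives of Dynlt1b, lie 102981 bp to its left and 9529 bp to its right, so reads of one copy could be placed on another. B6 ran from 0.33 to 1.03 CPM (median 0.77) and PWD had 10.4, 9.05 and 10.2. B6xPWD ran from 4.20 to 6.65 CPM (median 4.98), at 52.0% ± 8.18 of PWD. C5F1 ran from 17.6 to 23.8 CPM (median 21.97), and C1_5F1 had 24.0, 20.7, 24.2 and 29.5. Every C5F1 and C1_5F1 library therefore lay above every PWD library, at 218% ± 21.05 and 249% ± 36.9 of the PWD mean.

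The chr17 log2 difference from B6 was 3.94 ± 0.81 in PWD (adjusted p = 4.50e-04), 2.91 ± 0.52 in B6xPWD (adjusted p = 1.18e-04), 4.99 ± 0.45 in C5F1 (adjusted p = 2.13e-10) and 5.13 ± 0.59 in C1_5F1 (adjusted p = 3.70e-07). C5F1 exceeded B6xPWD by 2.08 ± 0.36 (adjusted p = 8.54e-05), and by 2.07 ± 0.07 (adjusted p = 2.55e-19) without any B6 or C5 library in the model. C1_5F1 and C5F1 differed by 0.17 ± 0.45 (adjusted p = 0.980). PWD exceeded B6xPWD by 1.16 ± 0.65 (adjusted p = 0.558), by 1.16 ± 0.15 with 16_2 and 16_3 left out (adjusted p = 5.21e-07), and by 1.15 ± 0.14 without any B6 or C5 library (adjusted p = 5.25e-07).

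In 7 C5 libraries the chr17 level was 32.8 to 48.6 CPM, with a mean of 43.4 ± 5.54, and C5F1 stood at 49.7% ± 4.79 of it. Libraries 16_2 and 16_3 had 0.66 and 0.39 CPM, inside the range of B6, and with them the C5 mean was 33.8 ± 19.5.

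Of 26 windows of the chr17 segment that passed the filter on low counts, 11 had every C5F1 library above every B6, B6xPWD and PWD library, against 0.00162% of all windows tested, 19 in number. Because B6 was near 0 in this segment, its windows passed that filter mainly through other strains. The shares are therefore not on equal terms, and the count is a description. The window with the highest mean level (chr17:6466751-6467000, CpG density score 13.9) had 0 CPM in PWD and 0.01 in B6 and in B6xPWD, against 0.79 in C5F1, 1.35 in C1_5F1 and 1.13 in C5 (1.44 over 7 libraries). The window richest in CpG among those tested (chr17:6494001-6494250, score 24.5) had 0 CPM in B6, 0.21 in PWD, 0.20 in C5F1 and 0.49 in C5 (0.63 over 7 libraries). One stretch of 16 kb, chr17:6518501-6534500 inside Gm2808, was picked after its values were seen. It drew 0 reads in 12 B6 libraries, 3 in the 3 PWD libraries and 12 in 9 of B6xPWD, against 340 in 9 of C5F1, 475 in 9 of C5 and 104 in 4 of C1_5F1. Every library of both F1 groups thus captured DNA from a stretch that drew almost no reads in either parental strain, at 1.19 to 2.26 CPM in C5F1 and 1.66 to 2.62 in C1_5F1. The C5 level there was 2.54 ± 1.44 CPM over 9 libraries, the lowest of which had 0, and 3.26 ± 0.19 over 7, from 2.95 to 3.44. In the input library of a B6xPWD adenoma, which was sequenced without capture, the whole segment drew 21 reads, 0.039 (95% interval 0.024 to 0.060) of the median 20 kb tile per kb. The 50 kb beside it were also low, at 0.10 of the median on the left and 0.21 on the right. In the same library chr10 stood at 0.47 (0.38 to 0.58), chr19 at 0.75 (0.53 to 1.03) and chr9 at 0.84 (0.67 to 1.04). The chr7 segment stood at 1.29 (1.02 to 1.61) and chr4 at 1.42 (1.30 to 1.55).

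The chr9 segment was low in C5 and intermediate in C5F1, and the ranges of the other 4 strains overlapped. It holds the small nucleolar RNA gene Gm23949 and lies between Cldn18, which encodes a tight junction claudin, 32734 bp to its left, and Sox14, a transcription factor gene, 91856 bp to its right. B6 ran from 15.9 to 19.5 CPM (median 17.3), B6xPWD from 15.5 to 19.3 (median 18.1), and PWD had 17.5, 17.8 and 17.7. C1_5F1 had 17.6, 17.8, 17.6 and 16.3. C5F1 ran from 7.69 to 8.86 CPM (median 7.96), below every library of those 4 strains, at 46.5% ± 2.63 of B6.

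The chr9 segment fell by 1.11 ± 0.25 on the log2 scale in C5F1 against B6 (adjusted p = 0.00580) and by 1.13 ± 0.26 against B6xPWD (adjusted p = 0.00313). PWD differed from B6 by -0.04 ± 0.39 (adjusted p = 0.965), B6xPWD from B6 by 0.02 ± 0.23 (adjusted p = 0.976) and C1_5F1 from B6 by -0.01 ± 0.34 (adjusted p = 0.996). C1_5F1 had 17.3 ± 0.70 CPM (n = 4) against 8.20 ± 0.43 (n = 6) in the same tissues of C5F1. That difference of 1.08 ± 0.37 did not pass (adjusted p = 0.323), and passed without C5 libraries 16_2 and 16_3 (1.07 ± 0.10, adjusted p = 5.24e-09) and without any B6 or C5 library (1.08 ± 0.07, adjusted p = 9.03e-11). The difference of C5F1 from B6xPWD was -1.14 ± 0.05 (adjusted p = 6.48e-17) in that last model.

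Among C5 libraries, 2 had no read at chr9 and 4 others had 1 to 3 reads, the Apc Min normal library 12_2 had 1.42 CPM, and 16_2 and 16_3 had 9.09 and 9.46, the level of C5F1. The mean was 0.25 ± 0.52 CPM over 7 libraries and 2.26 ± 4.00 over 9. The change at the right end was abrupt, with 65 C5 reads in the last 2 kb inside against 85 in the 2 kb outside (9 and 68 in the 7 libraries), where B6 had 540 and 120. The highest window (chr9:99767751-99768000) had 1.04 CPM in B6, 0.92 in PWD, 0.96 in C1_5F1, 0.46 in C5F1 and 0.11 in C5, which was 0.0061 over 7 libraries.

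**Figure D3:**
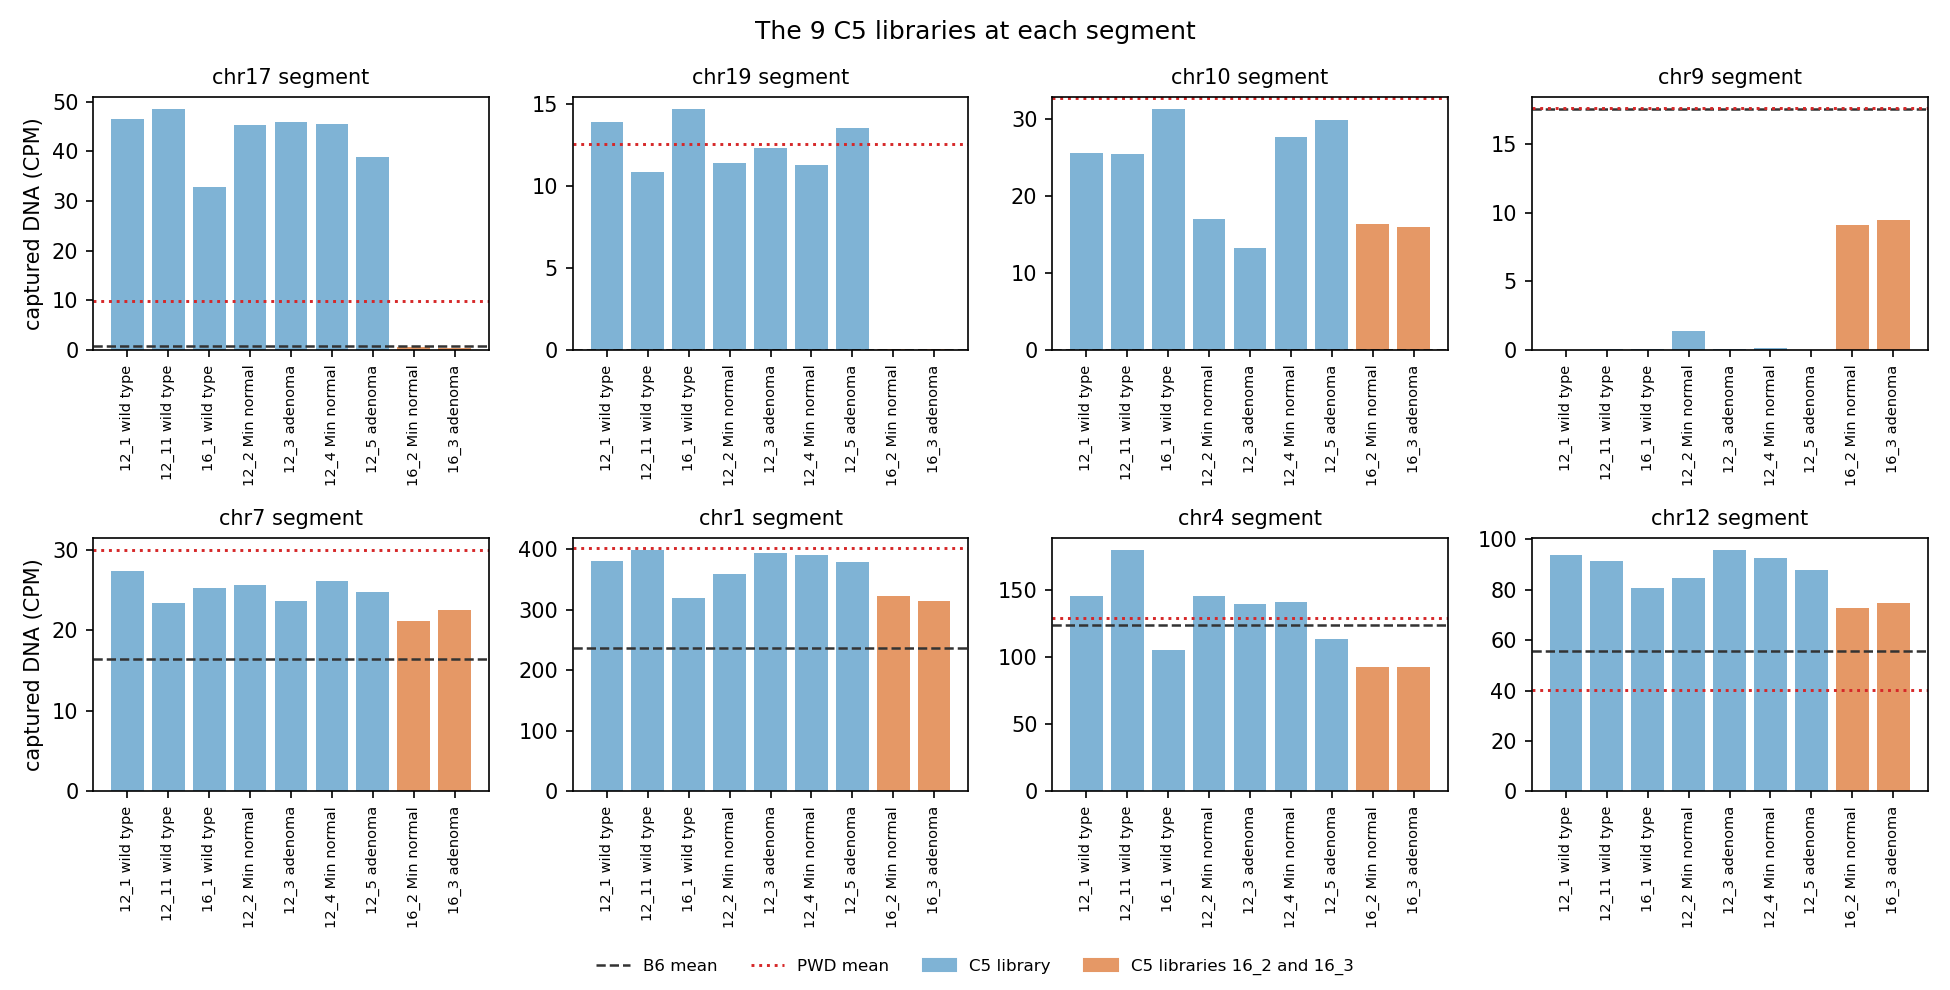
Captured DNA (CPM) in each of the 9 C5 libraries at each segment, with libraries 16_2 and 16_3 in orange and the B6 and PWD means as lines. The orange bars are at 0.05 CPM at chr19 and at 9.09 and 9.46 CPM at chr9, and at chr7, chr1 and chr12 all 9 bars are above the B6 mean.

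The chr7 segment was higher than B6 in every other strain, by less than 2-fold. It covers nearly all of 2310057M21Rik, a protein-coding gene that is named only by its clone, and lies between Fam24a and Pstk, a kinase gene of selenocysteine synthesis. B6 ran from 13.5 to 18.2 CPM (median 17.1), PWD had 29.6, 29.9 and 30.5, and B6xPWD ran from 21.7 to 25.1 (median 23.8). C5F1 ran from 17.7 to 22.02 CPM (median 20.1), C5 from 21.2 to 27.3 (median 24.7), and C1_5F1 had 23.1, 22.3, 25.2 and 25.7. PWD, B6xPWD, C5 and C1_5F1 libraries did not overlap B6, while C5F1 did. The C5 mean was 24.4 ± 1.91 CPM over 9 libraries and 25.2 ± 1.404 over 7.

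At chr7 the log2 difference from B6 was 0.86 ± 0.10 in PWD (adjusted p = 3.99e-09), 0.53 ± 0.06 in B6xPWD (adjusted p = 5.01e-09), 0.27 ± 0.06 in C5F1 (adjusted p = 0.00432) and 0.54 ± 0.08 in C1_5F1 (adjusted p = 1.39e-04). C5F1 was below B6xPWD by 0.26 ± 0.06 (log2 difference -0.26, adjusted p = 0.00384), and the value without any B6 or C5 library was -0.27 ± 0.06 (adjusted p = 0.00211). In the 24 windows with a CpG density score under 2, PWD had 1.99 ± 0.36 CPM, B6xPWD 1.52 ± 0.35 and C5 1.02 ± 0.31, against 1.03 ± 0.20 in B6. C5F1 had 1.13 ± 0.33 CPM there and C1_5F1 1.05 ± 0.21, ratios of 1.09 and 1.01 to B6 on the library sizes used throughout. A model of such windows alone, scaled to their own totals, gave -0.075 ± 0.16 for C5F1 and -0.062 ± 0.26 for C1_5F1 against B6, and neither passed. The sign there depends on the scaling, and both differences are smaller than their errors.

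The largest relative difference of the chr7 segment lay at the start of 2310057M21Rik, whose CpG-rich promoter is printed above. The 2 windows over it drew 9 reads in 12 B6 libraries, 0 to 0.11 CPM each. PWD had 2.10, 1.85 and 1.81 CPM, B6xPWD 0.36 to 1.58 (median 0.99), C5F1 0.48 to 1.35 (median 0.97), C5 0.80 to 2.36 (median 1.63, or 1.92 over 7 libraries), and C1_5F1 1.23, 0.89, 1.397 and 1.53. No library of another strain overlapped B6 there, and the means were 0.98 ± 0.37 in B6xPWD and 0.92 ± 0.33 in C5F1 against 1.92 ± 0.16 in PWD. The highest window of the gene, chr7:131356251-131356500, did not show this, with 2.42 CPM in B6, 2.07 in PWD, 1.76 in C5F1 and 1.95 in C5 (2.07 over 7 libraries). C1_5F1 was above the B6 mean there, at 3.05 CPM (2.77 to 3.32), in a range that overlaps that of B6 (1.44 to 3.04).

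**Figure D4:**
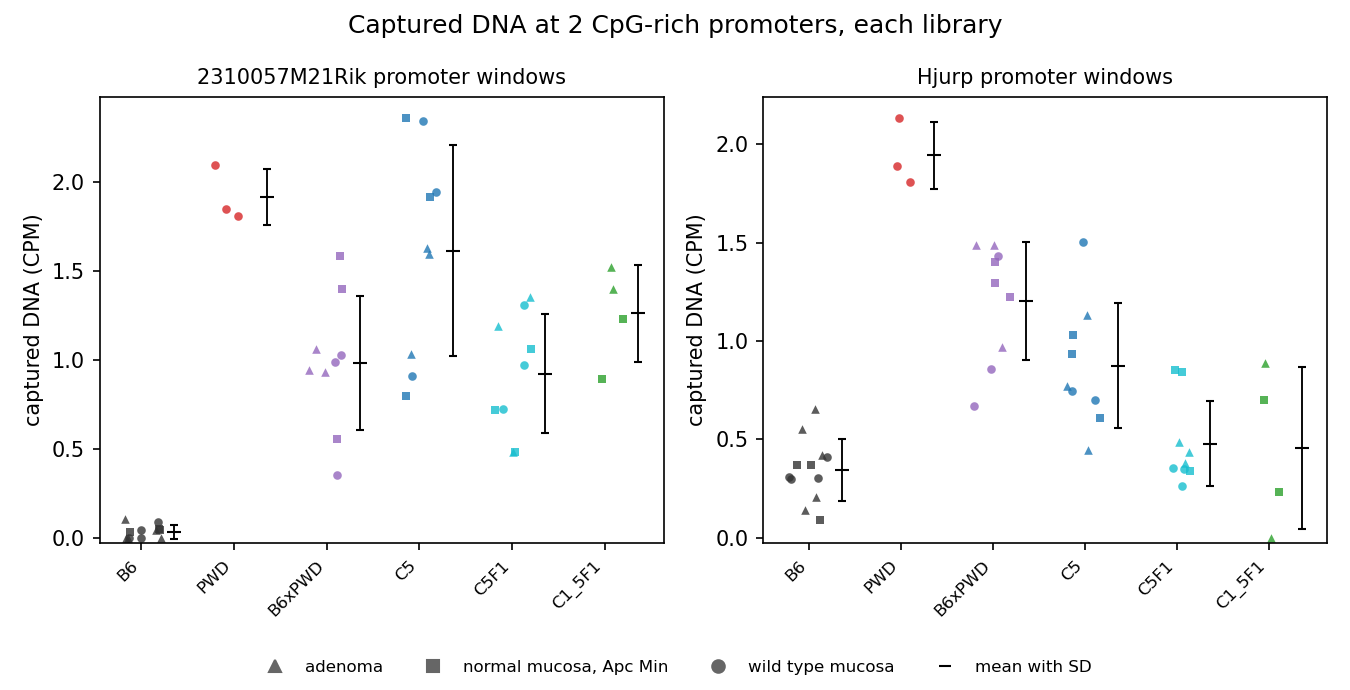
Captured DNA (CPM) in the windows over the 2310057M21Rik and Hjurp promoters, each library of the 6 strains, with tissue as the symbol and the mean with its SD. All B6 libraries are at or below 0.11 CPM at 2310057M21Rik. At Hjurp, C5F1 (0.26 to 0.85 CPM) and C1_5F1 (0 to 0.89) overlap B6 (0.09 to 0.65), while PWD is at 1.81 or more.

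The chr1 segment had the highest level of the 8 and a broad excess over B6. It covers part of Mroh2a, a HEAT repeat gene, all of Hjurp, whose protein is the chaperone that loads CENP-A at centromeres, and the start of Trpm8, the cold and menthol receptor channel. B6 ran from 191 to 269 CPM (median 234), and PWD had 406, 380 and 417. B6xPWD ran from 301 to 343 CPM (median 321), C5F1 from 251 to 317 (median 304), C5 from 314 to 398 (median 378), and C1_5F1 had 258, 277, 254 and 328. The B6xPWD, C5 and PWD libraries lay above all of B6, while C5F1 and C1_5F1 overlapped it. The C5 mean was 361 ± 34.4 CPM over 9 libraries and 374 ± 27.5 over 7.

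At chr1 the log2 difference from B6 was 0.77 ± 0.25 in PWD (adjusted p = 0.0240) and 0.46 ± 0.14 in B6xPWD (adjusted p = 0.0266). Neither 0.32 ± 0.14 in C5F1 (adjusted p = 0.127) nor 0.24 ± 0.20 in C1_5F1 (adjusted p = 0.637) passed. The call in PWD was lost without PWD library 11_2 (adjusted p = 0.0568), and that in B6xPWD without library 16_6, 18_2 or 16_5 (adjusted p = 0.0594, 0.0553 and 0.0505). C5F1 passed without B6 library 16_8 (0.29 ± 0.09, adjusted p = 0.0215).

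The input library of a B6xPWD adenoma drew 2680 reads in the chr1 segment, 11.0 (10.6 to 11.4) times the median tile, so the sequence was also abundant without capture. The neighbouring 50 kb stood at 4.26 times the median on the left and 1.64 on the right. The 2 windows with a CpG density score of 10 or more behaved apart from the rest of the segment. The window with the highest score (chr1:88277251-88277500, score 25.6, inside Hjurp) had 0.17 CPM in B6, 2.73 in PWD and 1.41 in B6xPWD, but 0.20 in C5F1 and 0.21 in C1_5F1. C5 libraries were spread there from 0.05 to 2.11 CPM, with a mean of 0.67 ± 0.63 over 9 libraries and 0.82 ± 0.63 over 7. Over the Hjurp promoter printed above, B6 had 0.34 ± 0.16 CPM, PWD 1.94 ± 0.17, B6xPWD 1.202 ± 0.30, C5 0.87 ± 0.32 (0.97 ± 0.28 over 7 libraries), C5F1 0.48 ± 0.22 and C1_5F1 0.46 ± 0.41. The CpG-poor Trpm8 promoter ranged less between strains, from 0.81 ± 0.12 in B6 to 1.21 ± 0.28 in PWD.

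The chr12 segment holds no gene of the annotation, and its nearest coding neighbour is the predicted gene Gm32719, 6989 bp to the right. It is the densest in CpG, with a median score of 9.53 against 1.89 over all autosomes. Here the substitution strains were highest and PWD lowest. B6 ran from 39.1 to 65.3 CPM (median 57.3), B6xPWD from 47.8 to 60.0 (median 54.6), and PWD had 41.2, 38.1 and 41.5. C5F1 ran from 61.5 to 80.1 CPM (median 74.5), C5 from 72.8 to 95.7 (median 87.8), and C1_5F1 had 93.6, 79.6, 84.7 and 109.8. C1_5F1 and C5 lay above every library of B6, B6xPWD and PWD, and C5F1 above every library of B6xPWD and PWD. The C5 mean was 86.0 ± 8.39 CPM over 9 libraries and 89.5 ± 5.38 over 7.

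At chr12 C5F1 rose by 0.39 ± 0.09 over B6 (adjusted p = 0.00569) and by 0.39 ± 0.09 over B6xPWD (adjusted p = 0.00437, or 0.00216 without any B6 or C5 library), and C1_5F1 by 0.70 ± 0.12 over B6 (adjusted p = 0.00143). PWD differed from B6 by -0.39 ± 0.15 (adjusted p = 0.0729), which passed with DESeq2 (adjusted p = 0.0149), and without B6 library 16_8 (-0.50 ± 0.13, adjusted p = 0.00579). B6xPWD and B6 did not separate (0.00 ± 0.09, adjusted p = 0.991). Both named windows followed the segment: chr12:20233501-20233750 had 6.35 CPM in B6, 5.17 in PWD and 8.56 in C5F1, and C5 and C1_5F1 had 10.0 and 11.4, while chr12:20232751-20233000 had 4.86, 2.37, 5.34, 6.23 and 7.83 in the same order. Over 7 libraries C5 had 10.3 and 6.63 CPM in these windows. The input library drew 69 reads, 3.71 (2.89 to 4.70) times the median tile. In the 50 kb to its right, C1_5F1 was at 1.46 and PWD at 0.60 of the B6 mean.

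The chr4 segment did not separate the strains. It covers part of Col16a1, a collagen gene, and Pef1, Hcrtr1 and Tinagl1, which encode a calcium-binding protein, an orexin receptor and a basement membrane protein. B6 ran from 85.2 to 158 CPM (median 120), B6xPWD from 101.4 to 153 (median 122), C5F1 from 90.9 to 147 (median 113), C5 from 92.9 to 180.0 (median 140), PWD had 152, 115 and 121, and C1_5F1 128, 115, 123 and 145. The groups overlapped throughout, and the C5 mean was 129 ± 29.1 CPM over 9 libraries and 139 ± 24.2 over 7. Its log2 difference from B6 was 0.15 ± 0.22 in PWD (adjusted p = 0.708), -0.08 ± 0.13 in C5F1 (adjusted p = 0.676), and -0.01 in both B6xPWD (± 0.13) and C1_5F1 (± 0.18). At its most CpG-dense window tested (chr4:130167501-130167750, in Tinagl1), means ran from 2.05 CPM in C5F1 to 2.66 in PWD. The promoters of Pef1 and Tinagl1, and 2 of the 3 listed for Hcrtr1, held at most 0.112 CPM in any strain's mean.

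**Figure D5:**
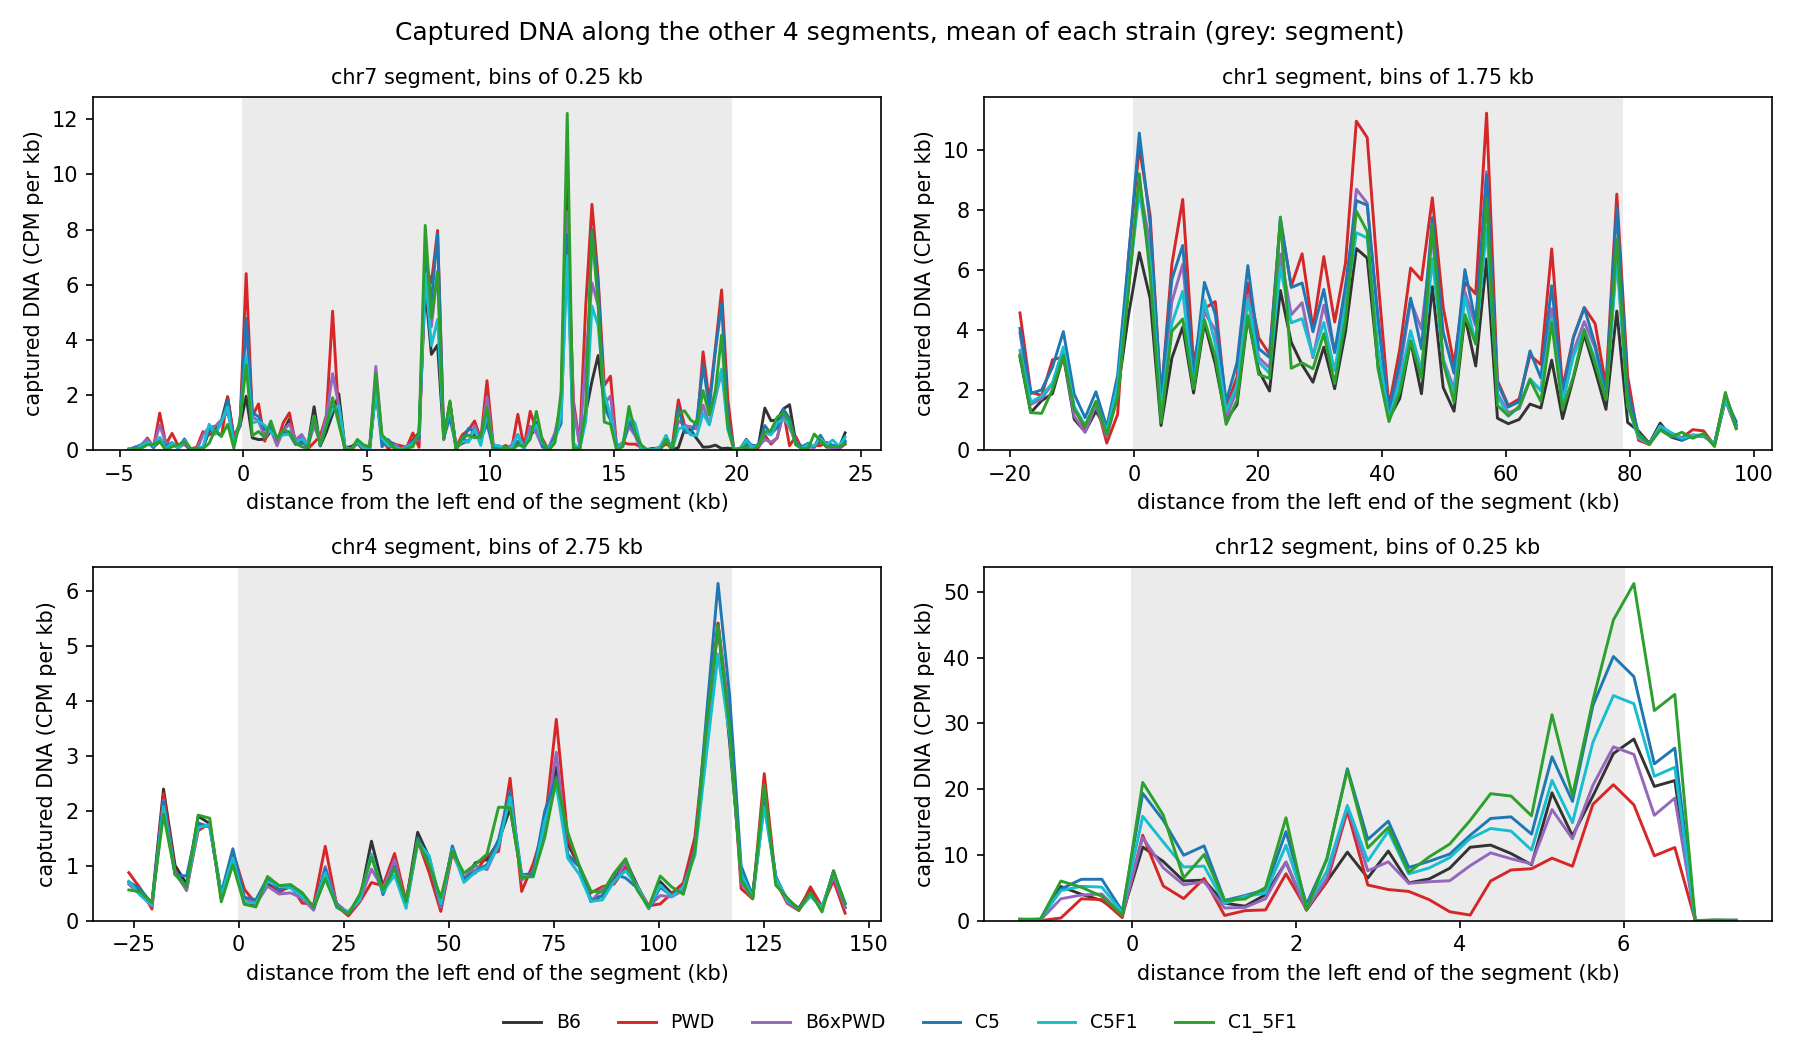
Mean captured DNA (CPM per kb) of each strain along the chr7, chr1, chr4 and chr12 segments and the sequence beside them, against distance from the left end of the segment in kb, with the segment in grey. The chr1 excess over B6 spans the grey part, the chr7 difference is in separate peaks that include the right end, the chr4 lines run together, and the chr12 peak at the right end runs past the segment.

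The 8 segments were read against all 118944 features tested, which are the segments and the 20 kb tiles of the other autosomal sequence. Between PWD and B6, 5 of 8 passed, all higher, with a median log2 difference of 0.82, against 16.4% of all features. Between B6xPWD and B6, 5 of 8 passed, all higher (median 0.49), against 14.3%, and between C5F1 and B6, 6 of 8 passed, 5 higher and 1 lower (median 0.35), against 11.9%. Between C1_5F1 and B6, 5 of 8 passed, all higher (median 0.62), against 0.233%. The B6 libraries in these comparisons entered the choice of segments, and C5F1 is by its label an F1 of C5. The segments and the other features are therefore not on equal terms here, and the counts against B6 describe the choice. In the comparisons that contrast neither B6 nor C5, 1 of 8 passed between PWD and B6xPWD, against 2.28%. Between C5F1 and B6xPWD 4 of 8 passed, 2 in each direction, against 8.93%. Between C1_5F1 and C5F1 0 of 8 passed by edgeR, against 0.107%, and no segment with an adjusted p from DESeq2 did. Without correction, 3 of those last 8 had p under 0.05, at chr9, chr7 and chr12, against 8.30% of all features. In the model without any B6 or C5 library these counts were 3 of 8 (chr17, chr19 and chr10) against 2.59%, 4 of 8 against 10.8%, and 1 of 8 (chr9) against 0.119%. The median log2 difference of all features lay between -0.01 and 0.01 in each of these comparisons. For C5 against B6, 12.8% of all features passed over the mean of 3 tissues, 0.81% in wild type mucosa alone and 4.49% in the Apc Min tissues. Which of these lies behind the choice of segments is not given.

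The same groups were compared window by window, over windows that passed the filter on low counts. At chr17, chr19 and chr10, where B6 was near 0, windows passed mainly through the other strains. The filter kept 26 of 687, 13 of 64 and 28 of 244 windows there, so shares at these segments are partly set by it. A filter at a mean of 1 count kept 82, 32 and 84 windows. In wild type mucosa, PWD lay above B6 without overlap in 27, 28 and 79 of them. Between PWD and B6 wild type mucosa, libraries did not overlap, PWD higher, in 13 of 13 tested windows at chr19, 28 of 28 at chr10, 148 of 261 at chr1, 18 of 27 at chr7 and 12 of 26 at chr17, against 9.8% of all windows, and PWD was lower in 9 of 24 at chr12, against 15.6%. C5F1 lay above B6 without overlap in 21 of 26 windows at chr17, 9 of 13 at chr19 and 21 of 28 at chr10, against 0.053%. It also did so in 4 of 27 at chr7, 3 of 261 at chr1 and 2 of 24 at chr12. At chr9, C5F1 lay below B6 in 2 of 26, against 0.0267%. B6xPWD lay above B6 in 4, 12, 25, 7, 12 and 1 windows at chr17, chr19, chr10, chr7, chr1 and chr12, against 0.714%. In the same order C1_5F1 did so in 20, 9, 22, 8, 13 and 11, against 0.711%. B6 libraries entered the choice of segments, so the counts against B6 describe that choice. C5F1 lay above B6xPWD in 13 of 26 windows at chr17, 1 of 28 at chr10 and 2 of 24 at chr12, against 0.125%. It lay below B6xPWD in 3 of 26 at chr9, 1 of 27 at chr7, 3 of 261 at chr1 and 1 of 151 at chr4, against 0.985%. At chr1 and chr4 this is near the share of all windows. In the wild type mucosa of C5, all 26 tested windows at chr17, 13 at chr19 and 28 at chr10 were above B6. All 26 at chr9 were below. Of all windows, 3.89% were above and 4.67% below. This contrast may lie behind the choice of segments, so these counts describe the choice and are no evidence of a difference. Over all 3 tissues, 16_2 and 16_3 included, C5 lay clear above B6 in 0 of 26 windows at chr17 and 0 of 13 at chr19. It did so in 24 of 28 at chr10, and lay clear below B6 in 9 of 26 at chr9.

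Beside the segments, levels over the 50 kb on each side departed from B6 mainly at chr17, chr12 and chr1. C5F1 stood at 0.87 to 1.23 times the B6 mean over the 16 flanks. Beside chr17, PWD was at 0.30 of B6 on the left and 0.42 on the right, and B6xPWD at 0.69 and 0.72. C5 had 4.25 ± 1.48 CPM on the left of chr17 against 3.03 ± 0.47 in B6, and over 7 libraries it stood at 1.62 of B6 on the left and 1.00 on the right. Beside chr12, PWD was at 0.48 and 0.60, B6xPWD at 0.82 and 0.85, C5 at 1.26 and 1.17 (1.23 and 1.22 over 7), and C1_5F1 at 1.07 and 1.46. To the left of chr1, C5 was at 1.24 (1.26 over 7) and PWD at 1.17. No test was run on the flanks.

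No segment passed a comparison of tissues over all libraries. Adenoma against Apc Min normal mucosa, averaged over 5 strains, gave 0 of 8 and 0% of all features with edgeR. No segment with an adjusted p from DESeq2 passed. Log2 differences from edgeR ran from -0.44 ± 1.00 at chr19 to 0.18 ± 0.36 at chr17, with no segment at an unadjusted p under 0.05. Apc Min normal against wild type mucosa, over 4 strains, also gave 0 of 8 and 0% of all features with edgeR. Again no segment with an adjusted p from DESeq2 passed. With edgeR, chr9 alone had an unadjusted p under 0.05, with a log2 difference of 1.48 ± 0.43 and an adjusted p of 0.99998. The C5 library 16_2 with 9.09 CPM is 1 of the Apc Min normal libraries behind that value. Without 16_2 and 16_3, chr9 passed between adenoma and normal mucosa (-1.02 ± 0.17, adjusted p = 0.0399), where the remaining C5 libraries had 0.05 and 0 CPM in adenomas and 1.42 and 0.16 in normal mucosa. The difference of the adenoma effect between strains passed in 0 of 8 segments and 0% of all features, with no unadjusted p under 0.05.

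Libraries carry a first number in their labels whose meaning is not given, and 5 strains share the number 16. Within it, the chr17 segment had 0.57 CPM in 1 B6 library, 10.2 in 1 of PWD, 4.59 ± 0.39 in 3 of B6xPWD and 19.6 ± 1.80 in 3 of C5F1. The chr19 levels in the same order were 0, 12.2, 6.30 ± 0.45 and 7.38 ± 0.17, and those at chr10 were 0.04, 33.3, 16.2 ± 0.32 and 16.4 ± 0.22. The chr9 levels were 17.3, 17.7, 18.2 ± 1.10 and 8.05 ± 0.19, and those at chr7 13.5, 30.5, 24.3 ± 0.85 and 19.3 ± 2.38. At chr1 they were 191, 417, 333 ± 10.4 and 266 ± 19.99, at chr12 39.1, 41.5, 57.0 ± 2.98 and 65.2 ± 5.98, and at chr4 85.2, 121, 113 ± 1.08 and 94.2 ± 3.16. Ordered by their means, these 4 strains stood as over all libraries at chr17, chr19, chr9, chr7 and chr1. At chr10 B6xPWD and C5F1 changed places, at chr4 B6 was the lowest and over all libraries C5F1 was, and at chr12 B6 was below PWD and B6xPWD and over all libraries above both. With that number in the model as a block, C5F1 against B6 passed in 0 of 8 segments, where 0.00168% of all features did, and B6xPWD against B6 in 3, where 6.24% did. The lost calls kept their sign under the block. In C5F1 their log2 differences were 4.36 ± 1.65 at chr17, 9.53 ± 8.96 at chr19, 6.56 ± 3.54 at chr10, -0.48 ± 0.41 at chr9, 0.52 ± 0.14 at chr7 and 0.72 ± 0.17 at chr12 (adjusted p = 1 at each from edgeR). In B6xPWD they were 2.97 ± 1.74 at chr17, 9.87 ± 9.06 at chr19 and 6.66 ± 3.56 at chr10 (adjusted p = 0.301, 0.546 and 0.252), while chr12 came to pass at 0.53 ± 0.17 (adjusted p = 0.0475). B6 shares with those strains only the number 16, in 1 library. C1_5F1 has the number 5 alone, which no other strain has, so the number and the strain cannot be told apart there. C5 and C5F1 carry the numbers 12 and 16, and at chr1, chr4 and chr12 the mean of number 16 was lower in both. In C5 it was 318 ± 4.33 (n = 3) against 383 ± 14.4 (n = 6), 97.2 against 144 and 76.0 against 91.0. In C5F1 it was 266 against 308, 94.2 against 129 and 65.2 against 75.8. C5F1 was higher with number 16 at chr19 (7.38 against 6.32) and chr10 (16.4 against 14.4). The cause was not tested.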

How the data were processed

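Read counts in 250 bp windows for 46 MeDIP libraries and 1 input library were deposited by the authors in 1 table. Per the submitters' processing notes the aligner was BWA and the build mm10; its settings, and how windows were counted, are not given here. The deposited CpG density score of each window has no stated scale. Of 54 labelled samples, 7 were not used here because no column was matched to them, and the library 11_6 was grouped by its MeDIP label. The segments and all lists were chosen with earlier results of these data known.

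Counts were summed over the 8 segments and over 20 kb tiles of the other autosomal sequence, 118944 features. With edgeR 4.0.16 in R 4.3.3, library sizes were scaled by TMM over the features that filterByExpr kept at a minimum count of 10, and all 15 combinations of strain and tissue entered a single quasi-likelihood fit. Contrasts over tissues weight them equally. P-values were adjusted over all features after Benjamini and Hochberg, with a threshold of 0.05, and the standard error is the log2 difference divided by the square root of F. CPM is the count over the scaled library size. Ratios of pooled reads carry 95% exact binomial intervals, and input ratios carry 95% Poisson intervals. Both cover counting error only, without the spread between libraries, and the reads have no molecular identifiers. Positions between B6 and PWD used windows whose wild type libraries do not overlap and differ at least 2-fold with 0.05 CPM added. Genes and promoters are from RefSeq tables of GRCm38.p6.

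All 8 segments and all genes overlapping them were eligible for naming, with the window of highest mean CPM and the tested window of highest CpG score in each; other windows are given as chosen after their values were seen. Alternatives were DESeq2 1.42.0, other scaling, no filter, 50 kb tiles, CpG-poor or CpG-rich windows alone, the highest 5% of windows left out, the first label number as a block, each library left out in turn, and 3 added after seeing the data, without C5 libraries 16_2 and 16_3, without all C5 libraries, or without all B6 and C5 libraries. The tests were checked on simulated data for C5F1 against B6, with 100 features changed 2-fold and 100 changed 1.5-fold. All of these were called, but 20 of the 220 calls were false, a larger share than the threshold of 0.05. The check did not cover comparisons with C5, nor changes as large as those where B6 was nearly empty. No reference genome was used, so window sequences were not analysed here.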

Additional observations from a re-analysis of the deposited data

Results flagged for a closer look

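Of 16 pairs of a group with 4 to 10 libraries and a segment, 1 held a library that stood apart from its group. At the chr19 segment the B6 wild type library 4_5 had 0.0458 CPM, which is 1 read, while the other 3 B6 wild type libraries had 0. Because the other 3 are tied at 0, any single read sets a library apart here, and the rate at which chance does so was not determined. The 13 groups of 3 or fewer libraries, which include all of C5, were not tested in this way.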

How the results depend on the processing

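Over alternatives other than leaving out a library, 698 of 782 values of single segments kept their direction and their side of the threshold, 37 that passed neither before nor after changed sign, 17 no longer passed, 28 came to pass and 2 that had passed changed sign. Leaving out each library in turn kept 1130 of 1200 in both respects, 64 that passed neither before nor after changed sign, 4 no longer passed and 2 came to pass. Each such fit kept the features and the dispersion trend of the main model, and was read only for comparisons that hold the group of the library left out. Leaving out a single C5 library was therefore not counted in comparisons without C5. In the chr7 segment, windows with a CpG score under 2 gave -0.075 ± 0.16 in C5F1 minus B6 and -0.062 ± 0.26 in C1_5F1 minus B6, scaled to such windows alone; on the main library sizes the ratios of the means were 1.09 and 1.01, so this sign depends on the scaling. Those windows alone gave 2 called segments in PWD minus B6 (5 in all windows), 3 in B6xPWD minus B6 (5) and 3 in C1_5F1 minus B6 (5), where 6.38%, 5.36% and 0.0442% of all features passed (16.4%, 14.3% and 0.233% in all windows); chr12 has no such window. With the first label number as a block, which is a number shared in the labels and not a stated pairing, B6xPWD minus B6 gave 3 called segments (5 without the block) with 6.24% of all features called, and C5F1 minus B6 gave 0 (6 without the block) with 0.00168%, and in C5F1 minus B6xPWD the chr9 value was -0.59 (adjusted p = 0.0757). PWD minus B6xPWD, with 1 called segment, gave 2 with DESeq2, without TMM, with 50 kb tiles, with CpG scores of 2 or more and without the highest 5% of windows, and 3 under the block, without all C5 libraries, without all B6 and C5 libraries and without 16_2 and 16_3. C1_5F1 minus C5F1 (0) gave 1 under each of the last 3, and the adenoma comparison (0) gave 1 without 16_2 and 16_3. Windows that do not overlap, counted where the mean was at least 1 count, were 93 higher in C5F1 minus B6 (60 by the stricter filter), 130 higher (83) and 3 lower (1) in C1_5F1 minus B6, and 26 higher (16) in C5F1 minus B6xPWD. DESeq2 gave an adjusted p for 63 values of single segments, where edgeR with DESeq2 size factors gave 72. The chr9 values in C5F1 minus B6 and C5F1 minus B6xPWD were among those without one. For these changes the cause was not tested. B6 held 3 reads at chr19 and 15 at chr10, and this depth limits how large those differences are.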
